A study of Mus musculus with 3 samples.

Results

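The genes described here are 46 genes that peak in the G2 and M phases of the cell cycle, and they were followed across the cell types of mouse fetal ovarian somatic cells (FOSCs). They were taken as a fixed list of symbols, chosen with earlier results of these data known but not by level. All 46 were found among the 18738 genes of the count tables, with UMIs (unique molecular identifiers, 1 per captured transcript) in each sample. The data are single-cell RNA-seq (10X Genomics Chromium 3′ v3) of 3 lots of FOSCs, lots 26, 29 and 30, profiled after thaw. Each lot pooled the ovaries of E12.5 CD1 embryos from 10 time-mated pregnant females, freed of the mesonephros, dissociated with trypsin and frozen. Before freezing, cells bearing SSEA1 or CD31 were removed with magnetic beads, so that the germ cells and endothelial cells in these tables are those that escaped the beads. All lots share 1 genotype and 1 treatment, there are no conditions to compare, and the comparisons below are between cell types over the 3 lots.

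The G2 and M genes encode the machinery that condenses, attaches and separates chromosomes. Cyclin B and Cdk1 start mitosis, kinetochore and spindle proteins attach and move the chromosomes, the spindle checkpoint holds the cell until every chromosome is attached, and the anaphase-promoting complex then destroys cyclin B. Transcription of these genes is held back in resting cells by the DREAM complex and switched on by the MuvB core with B-Myb (Mybl2) and Foxm1, which act at the cell cycle genes homology region (CHR) of the promoter, with the factor NF-Y at CCAAT boxes nearby. In the fetal ovary, pre-granulosa cells leave the cell cycle early and are marked by the inhibitor Cdkn1b (p27), while surface epithelium, stroma and germ cells go on dividing and the germ cells then enter meiosis.

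Cells with 200 to 9000 genes and at most 10% mitochondrial UMIs were kept, which left 9711, 8553 and 10707 cells in lots 26, 29 and 30 with median depths of 11126, 8949 and 11595 UMIs. Doublet calls ranged from 4.06 to 5.93% of a lot's cells, and 20 to 30 barcodes were shared between any 2 lots. The cells were clustered without cell cycle genes: of 2000 variable genes, 167 were cell cycle genes (44 of them members) and were left out. The 24 clusters were named from fixed marker lists, and 18 of them took a name, as pre-granulosa-like (12408 cells), epithelial-like (5581), stromal-like (5539), germ-like (1469), Sertoli-like (390), endothelial-like (351), macrophage-like (135), red-blood-cell-like (77) and mesonephric-tubule-like (63). Among these classes, each held the highest summed level of its own markers in every lot, which naming by the same markers helps to fix. The epithelial-like class is the least sharply marked of the large classes: its own markers summed to 656 to 796 CPM (the share of all UMIs of a class and lot, scaled to the same fixed total throughout), beside 829 to 1118 CPM of pre-granulosa markers and 904 to 1204 CPM of stromal markers.

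Promoter sequence is a feature that the choice of genes did not use. RefSeq promoter windows (GRCm38.p6, 250 bases before to 50 after the start) matched 39 of the 46 members. The CHR core, TTTGAA or TTCGAA on either strand, was present in the windows of 30 members (76.9%), beside 5854 of all 27025 genes with a window (21.7%). CCAAT on either strand was present in 31 members (79.5%), beside 41.1% of all genes, and both motifs stood together in 25 members (64.1%), beside 8.61% of all genes. Birc5, Nuf2, Nusap1 and Tacc3 had neither in the window. Neither motif contains the other, and a match is a description of the sequence only. The 200 bases before the start are printed for 6 members that the results return to: the B-type cyclins Ccnb1 and Ccnb2, the Cdk1 adaptors Cks1b and Cks2, the spindle kinase Aurka, and Top2a, the topoisomerase that untangles chromosomes. Capitals mark CHR cores and CCAAT boxes, the latter written ATTGG and the former TTCAAA where they lie on the other strand.

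Ccnb1 (chr13:100786487-100786686, minus strand): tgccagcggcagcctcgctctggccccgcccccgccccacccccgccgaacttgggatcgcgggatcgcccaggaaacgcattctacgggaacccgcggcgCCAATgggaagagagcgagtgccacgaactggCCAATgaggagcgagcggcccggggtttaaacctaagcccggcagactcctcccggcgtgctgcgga

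Ccnb2 (chr9:70421555-70421754, minus strand): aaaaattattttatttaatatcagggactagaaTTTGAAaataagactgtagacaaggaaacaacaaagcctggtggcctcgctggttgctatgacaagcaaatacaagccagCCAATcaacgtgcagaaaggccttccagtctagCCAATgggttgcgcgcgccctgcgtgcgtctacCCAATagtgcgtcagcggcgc

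Cks1b (chr3:89418292-89418491, minus strand): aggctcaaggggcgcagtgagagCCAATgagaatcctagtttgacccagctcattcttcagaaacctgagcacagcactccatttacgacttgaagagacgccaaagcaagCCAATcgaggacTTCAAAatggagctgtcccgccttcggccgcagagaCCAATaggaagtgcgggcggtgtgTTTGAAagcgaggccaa

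Cks2 (chr13:51645032-51645231, plus strand): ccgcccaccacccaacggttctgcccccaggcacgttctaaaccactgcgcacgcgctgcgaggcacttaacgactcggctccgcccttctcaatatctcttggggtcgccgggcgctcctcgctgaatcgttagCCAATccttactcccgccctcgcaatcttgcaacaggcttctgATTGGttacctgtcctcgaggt

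Aurka (chr2:172370571-172370770, minus strand): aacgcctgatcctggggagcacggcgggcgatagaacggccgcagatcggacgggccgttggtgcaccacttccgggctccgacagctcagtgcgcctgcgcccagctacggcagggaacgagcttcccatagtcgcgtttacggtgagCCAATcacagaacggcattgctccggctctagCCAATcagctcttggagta

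Top2a (chr11:99024190-99024389, minus strand): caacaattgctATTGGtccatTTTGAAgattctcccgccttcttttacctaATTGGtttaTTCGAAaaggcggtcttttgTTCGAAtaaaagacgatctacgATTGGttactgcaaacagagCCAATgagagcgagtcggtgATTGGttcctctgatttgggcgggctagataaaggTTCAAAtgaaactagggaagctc

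The printed bases differ in what they hold. Top2a carries 4 CHR cores and 5 CCAAT boxes, Cks1b carries 2 and 3, and Ccnb2 carries 1 and 3. Ccnb1, Cks2 and Aurka each hold 2 CCAAT boxes and no CHR core of these letters in the printed bases. The full windows hold more for some genes: 1 core for Aurka, 2 cores for Ccnb2, 4 CCAAT boxes each for Cks1b and Cks2, and 6 for Top2a.

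The question first asked was how much of each cell type's RNA these genes make up. Summed over the 46 genes, germ-like cells had the highest level, at 8197, 8636 and 7919.8 CPM in lots 26, 29 and 30 (8251 ± 361, SD, n = 3). Epithelial-like cells followed at 6246, 6338 and 5658 CPM, and stromal-like cells at 5978, 5726 and 5743 CPM. Pre-granulosa-like cells, the most numerous class, stood far below at 1311, 1490.3 and 1558 CPM (1453 ± 127). The lots of the germ-like class lay above, and those of the pre-granulosa-like class below, every lot of the other large classes. The epithelial-like and stromal-like lots overlapped. The stromal-like level depends on a cluster of 2175 cells that had all 9 stromal markers raised but had none of them, and 1 marker of another list, among its 10 leading genes. Without that cluster the stromal-like class was at 8469, 7787 and 8082 CPM (8113 CPM on average), and its lots then overlapped the germ-like ones.

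Among the smaller classes, endothelial-like cells had 5577 ± 284 CPM and macrophage-like cells 5515 ± 1238 CPM, with macrophage-like lots as far apart as 4409 CPM in lot 26 and 6853 CPM in lot 29, from 68 and 21 cells. Mesonephric-tubule-like cells ranged from 3616 to 6394 CPM over 17 to 23 cells a lot. The lots of these 2 small classes overlapped those of the epithelial-like, stromal-like and endothelial-like classes, so that they have no settled place in the order. Red-blood-cell-like cells, whose RNA is mostly globin, had the lowest level, at 637 ± 81.2 CPM.

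**Figure D1:**
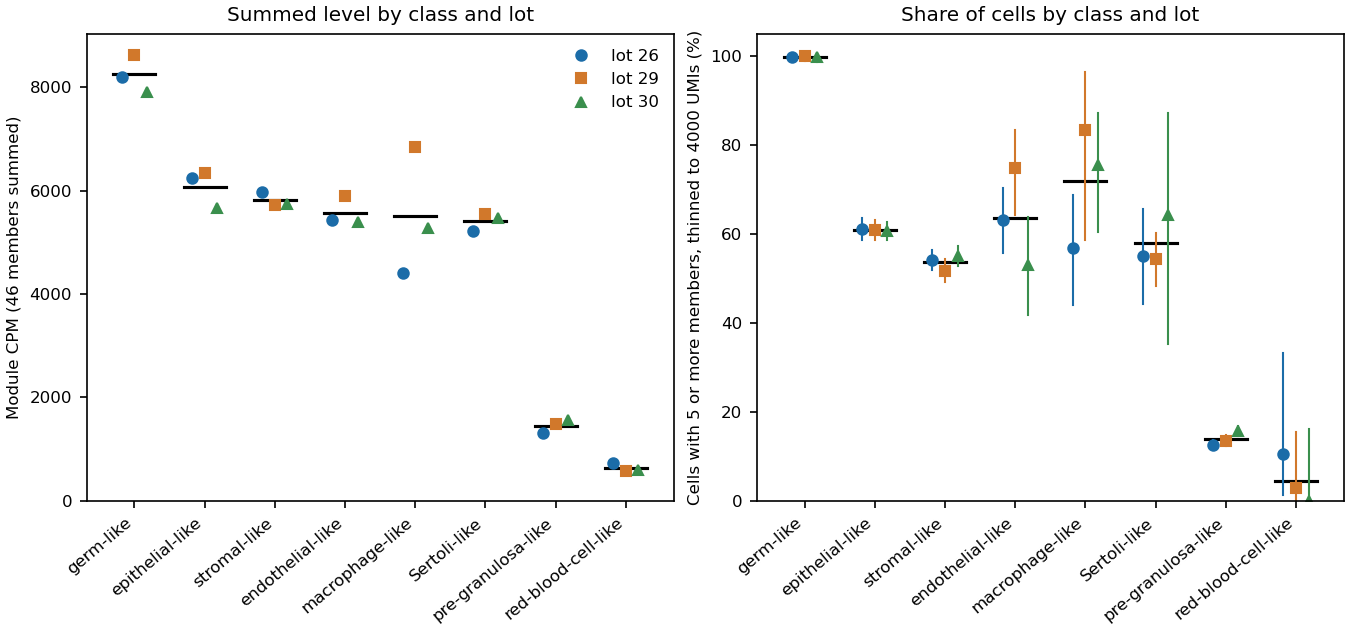
Summed level of the 46 genes in CPM (left) and the share of cells with 5 or more of them detected after thinning to 4000 UMIs, in percent (right), per class, with 1 point per lot, a black line at the mean of the lots and, on the right, exact 95% binomial intervals that cover counting error only. Cells under 4000 UMIs are left out on the right. Germ-like lots are the highest and red-blood-cell-like lots the lowest on the left, and on the right the small classes have wide intervals.

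Counted per cell, 5 or more members were detected in 100% of germ-like cells in every lot, in 90.5 ± 3.72% of epithelial-like cells and 76.3 ± 5.73% of stromal-like cells (SD, n = 3). Among pre-granulosa-like cells the share was 63.9 ± 11.4%. This share moves with depth. Pre-granulosa-like cells of lot 29, the shallowest lot at a median of 8380.0 UMIs, had 51.0%, beside 67.9% and 72.7% in lots 26 and 30. Each cell with at least 4000 UMIs was then thinned to 4000 UMIs. Shallower cells were left out of the thinned shares and of the thinned comparisons below. This left 9457, 8301 and 10378 cells of all classes in lots 26, 29 and 30. The shares became 99.9% for germ-like, 60.9 ± 0.185% for epithelial-like, 53.6 ± 1.67% for stromal-like and 13.9 ± 1.56% for pre-granulosa-like cells. Thinning brought the lots of each large somatic class close together.

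Free RNA in the droplets can add UMIs to cells that do not express a gene. Red-blood-cell-like cells, taken as the class that should hold the fewest of these transcripts, reached 5 members in 34.8 ± 16.1% of cells at a median of 9800.5 UMIs and in 4.49 ± 5.43% after thinning. Their 8 markers, 6 of them globin genes, summed to 732169 CPM, so that thinning to the same total left these cells with fewer UMIs of other genes than pre-granulosa-like cells, which had a median of 10138 UMIs. With 20 to 36 red-blood-cell-like cells a lot, the background share of the members is not settled by these values. Of the 10 pairs among the germ-like, endothelial-like and 3 large somatic classes, 8 did not overlap between lots, both before and after thinning. Each of these 8 had a p of 0.1 in the exact 2-sided permutation test (0.125 adjusted over the 10 pairs). With 3 against 3 lots this is the smallest p that the test allows. The test took the lots as unpaired, although both classes of a pair came from the same lots. The 2 overlapping pairs were pre-granulosa-like against stromal-like and epithelial-like against endothelial-like before thinning, and the 2 pairs of endothelial-like with epithelial-like and with stromal-like after it. Called doublets made up 5.76 to 7.38% of cells with 5 or more members and 0.570 to 0.867% of the rest, and doublets carry more UMIs. Without called doublets the shares before thinning were 63.5% in pre-granulosa-like, 75.8% in stromal-like and 89.98% in epithelial-like cells.

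Cells with fewer than 5 members had module levels closer together, from 446 CPM in red-blood-cell-like and 516 CPM in pre-granulosa-like cells to 619.6 CPM in epithelial-like and 650.4 CPM in stromal-like cells, which the selection itself helps to fix.

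The members were not equally abundant. By UMI counts, and not per transcript length, the 10 highest over the germ-like and 3 large somatic classes were Hmgb2, Top2a, Tubb4b, Cenpf, Ube2c, Cks1b, Smc4, Birc5, Tmpo and Cks2. Hmgb2 (chr8:57511907-57515999), a chromatin protein that bends DNA, was at 2306, 2353 and 1942 CPM in the germ-like cells of lots 26, 29 and 30. It was at 911, 909.6 and 752 CPM in epithelial-like, 829, 764 and 751 CPM in stromal-like and 149, 177 and 179.8 CPM in pre-granulosa-like cells. Germ-like lots were thus all above the others, and pre-granulosa-like lots all below. Top2a (chr11:98992943-99024189) was closer among the dividing classes, at 466, 459 and 478 CPM in germ-like, 438, 400.4 and 361 CPM in epithelial-like and 406, 347 and 361 CPM in stromal-like cells, and at 53.7, 59.98 and 67.1 CPM in pre-granulosa-like cells. Smc4 (chr3:69004738-69034623), a condensin subunit, was at 369.7, 373 and 399 CPM in germ-like cells and had 196 ± 12.6, 212 ± 11.03 and 48.9 ± 0.808 CPM in epithelial-like, stromal-like and pre-granulosa-like cells. Cenpf (chr1:189640606-189688086), a large kinetochore protein, followed the same order as Hmgb2, at 564, 585 and 550.5 CPM in germ-like, 313, 340.0 and 295 in epithelial-like, 259, 272 and 252 in stromal-like and 39.9, 55.8 and 53.6 CPM in pre-granulosa-like cells.

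The abundant members Cks1b, Tmpo, Birc5 and Ube2c did not follow that order. Cks1b (chr3:89415472-89418383) was at 107, 130.1 and 122 CPM in germ-like cells, a level that overlapped the 111, 133 and 127 CPM of pre-granulosa-like cells and was far below the 297, 357 and 315 CPM of epithelial-like and 287, 327 and 311 CPM of stromal-like cells. Tmpo (chr10:91147571-91181315), which encodes the lamina-associated LAP2 proteins of the nuclear envelope, behaved alike, at 105, 90.3 and 115 CPM in germ-like, 106, 120.3 and 127 in pre-granulosa-like, 257, 275 and 260.0 in epithelial-like and 266, 260.0 and 271 CPM in stromal-like cells. Birc5 (chr11:117849251-117855743), the survivin subunit of the chromosomal passenger complex, was intermediate in germ-like cells at 157, 175 and 161 CPM, below the 283, 313 and 262 CPM of epithelial-like and 276, 285 and 273 CPM of stromal-like cells and above the 39.98, 48.2 and 47.3 CPM of pre-granulosa-like cells. Ube2c (chr2:164769898-164778822), the ubiquitin-conjugating enzyme of the anaphase-promoting complex, had overlapping lots in the dividing classes, at 336, 405 and 335 CPM in germ-like, 371, 411 and 357 in epithelial-like and 303, 333 and 291 CPM in stromal-like cells, and was at 63.0, 77.3 and 79.1 CPM in pre-granulosa-like cells. Tubb4b (chr2:25222160-25224702), a beta-tubulin, spanned a narrow range, with 435 ± 36.0 CPM in germ-like, 329 ± 8.23 in epithelial-like, 284 ± 13.0 in stromal-like and 155 ± 20.4 CPM in pre-granulosa-like cells. Cks2 (chr13:51645232-51650660) had 222 ± 23.6, 161 ± 10.99, 167 ± 9.55 and 58.8 ± 1.90 CPM in these classes.

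Over 8 named classes, with the mesonephric-tubule-like cells left aside, 22 members were highest in germ-like, 8 in epithelial-like, 7 in Sertoli-like, 6 in stromal-like, 2 in endothelial-like and 1 (Mki67) in macrophage-like cells, by the mean of the lots. Red-blood-cell-like cells had the lowest mean of 44 members, 8 of which had no UMI there and 13 only 1 to 3. The exceptions were Mki67 and Ube2c, which were lowest in pre-granulosa-like cells. Ube2c gave 45, 29 and 35 UMIs in the red-blood-cell-like cells of lots 26, 29 and 30 (243, 76.9 and 128 CPM) from 20, 36 and 21 cells, which put it with Tubb4b above the other members there. Agreement between lots was close in the large classes: the median coefficient of variation of a member over the 3 lots was 5.37% in stromal-like, 6.78% in germ-like, 7.86% in epithelial-like and 10.7% in pre-granulosa-like cells. Mki67, the gene of the proliferation antigen Ki-67, was among the 3 most variable members in epithelial-like, germ-like and stromal-like cells, and in each of these it was highest in lot 26, with 180.5, 136 and 125 CPM in epithelial-like and 213, 153 and 176 CPM in stromal-like cells.

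**Figure D2:**
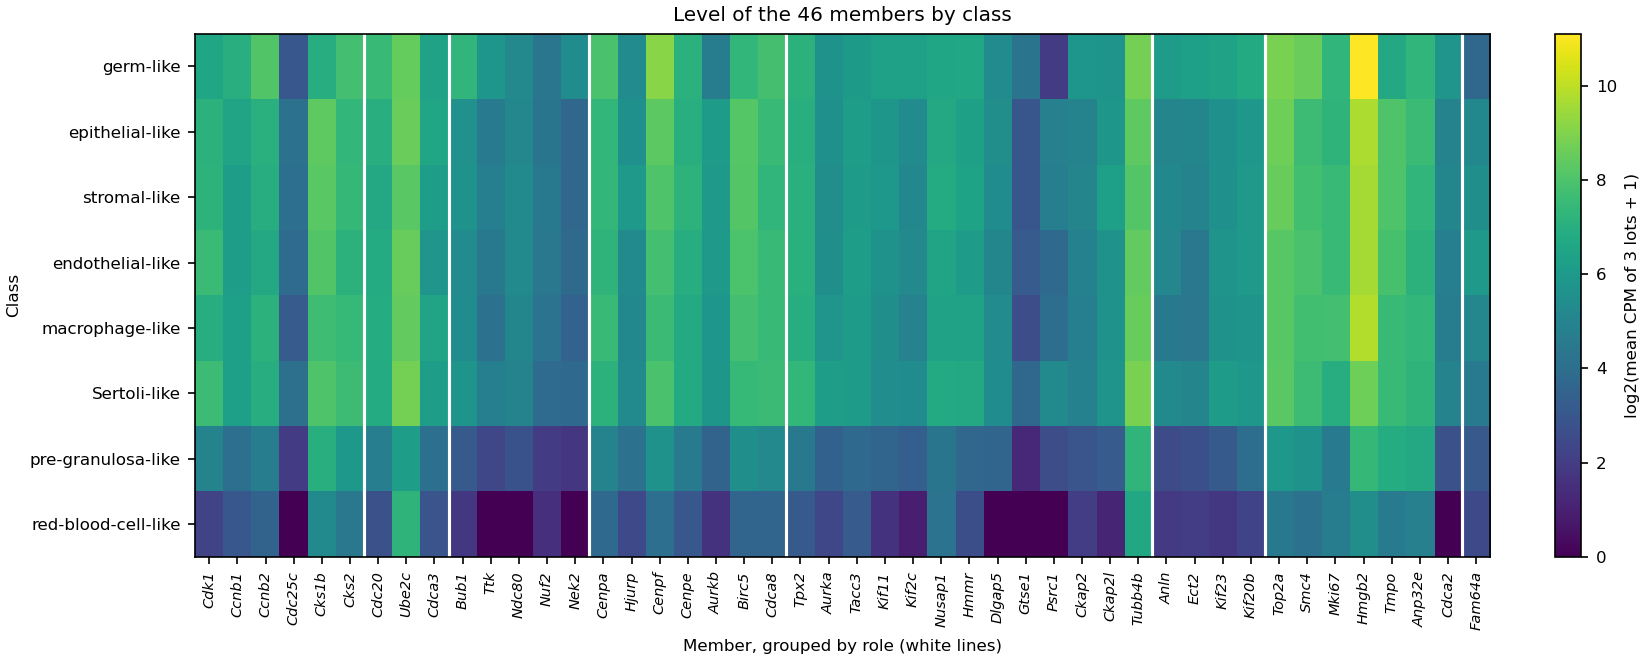
Level of each of the 46 genes as log2(mean CPM of 3 lots + 1), with classes as rows and genes, grouped by role, as columns, from dark (low) to bright (high). The pre-granulosa-like and red-blood-cell-like rows are the darkest, and in the germ-like row Psrc1 is the darkest cell and Hmgb2 the brightest.

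The next comparison asked which members separate the dividing somatic classes from pre-granulosa-like cells. Sums of UMIs for each class in each lot were tested with edgeR's quasi-likelihood test over 13885 genes. All 46 members were higher in stromal-like than in pre-granulosa-like cells at an adjusted p under 0.05, beside a background of 24.1% of all genes called higher and 26.3% called lower. The median log2 fold change of the members was 2.23, beside -0.02 over all genes tested. Against epithelial-like cells the picture was alike: all 46 members were higher than in pre-granulosa-like cells, with a background of 20.2% higher and 24.7% lower, and medians of 2.34 for the members and -0.05 for all genes. Both comparisons share the pre-granulosa-like sums. Scaling by library totals in place of TMM moved the median of all genes in the stromal-like comparison to 0.10 and that of the members to 2.36.

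Ckap2l, Mki67 and Nuf2 differed the most. Ckap2l, which encodes a spindle protein that binds microtubules, was at 82.7, 73.0 and 73.4 CPM in the stromal-like cells of lots 26, 29 and 30 and at 6.86, 9.40 and 8.46 CPM in pre-granulosa-like cells, a log2 fold change of 3.09 ± 0.17 (SE, edgeR adjusted p = 3.6e-14). Mki67 had 213, 153 and 176 CPM against 20.3, 21.8 and 23.7 CPM and a log2 fold change of 2.92 ± 0.19. Nuf2, a subunit of the NDC80 complex that grips microtubules, had 23.3, 20.3 and 21.8 CPM against 2.26, 3.20 and 2.89 CPM and a log2 fold change of 2.86 ± 0.16. The groups were far apart for all 3 genes, with no lot of one class near the other. The same 3 members led in epithelial-like cells, with log2 fold changes of 2.73 ± 0.17 for Ckap2l, 2.71 ± 0.16 for Nuf2 and 2.67 ± 0.19 for Mki67.

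At the other end, Anp32e, a histone chaperone that removes H2A.Z, had the smallest difference, with 151, 166 and 149 CPM in stromal-like and 94.2, 112 and 102 CPM in pre-granulosa-like cells and a log2 fold change of 0.47 ± 0.18 (edgeR adjusted p = 0.028). Tubb4b (0.75 ± 0.26, edgeR adjusted p = 0.017), Tmpo (1.05 ± 0.14), Cks1b (1.199 ± 0.20) and Cks2 (1.39 ± 0.18) came next. The 4 smallest differences against epithelial-like cells were again those of Anp32e (0.81 ± 0.18), Tubb4b (1.01 ± 0.26), Tmpo (1.09 ± 0.14) and Cks1b (1.32 ± 0.20). With lot 26 or lot 30 left out, 44 members were called higher in stromal-like cells, beside 2637 of 13763 and 2531 of 13970 genes.

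By role, the medians in the stromal-like comparison lay close together. Spindle checkpoint and outer kinetochore genes had a median log2 fold change of 2.54 over 5 genes (range 2.18 to 2.86). Cytokinesis genes had a median log2 fold change of 2.38 over 4 genes (range 1.92 to 2.72), and the centromere and chromosomal passenger genes 2.31 over 7 genes. Spindle assembly genes had a median log2 fold change of 2.20 over 13 genes (range 0.75 to 3.09). The cyclins, Cdk1 and its adaptors had a median log2 fold change of 2.11 over 6 genes (range 1.199 to 2.36), the chromosome structure genes had a median log2 fold change of 2.09 over 7 genes (range 0.47 to 2.92), and the group of Cdc20, Ube2c and Cdca3 1.96. The range within each of the roles given here with a range was thus wider than the range of the medians.

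**Figure D3:**
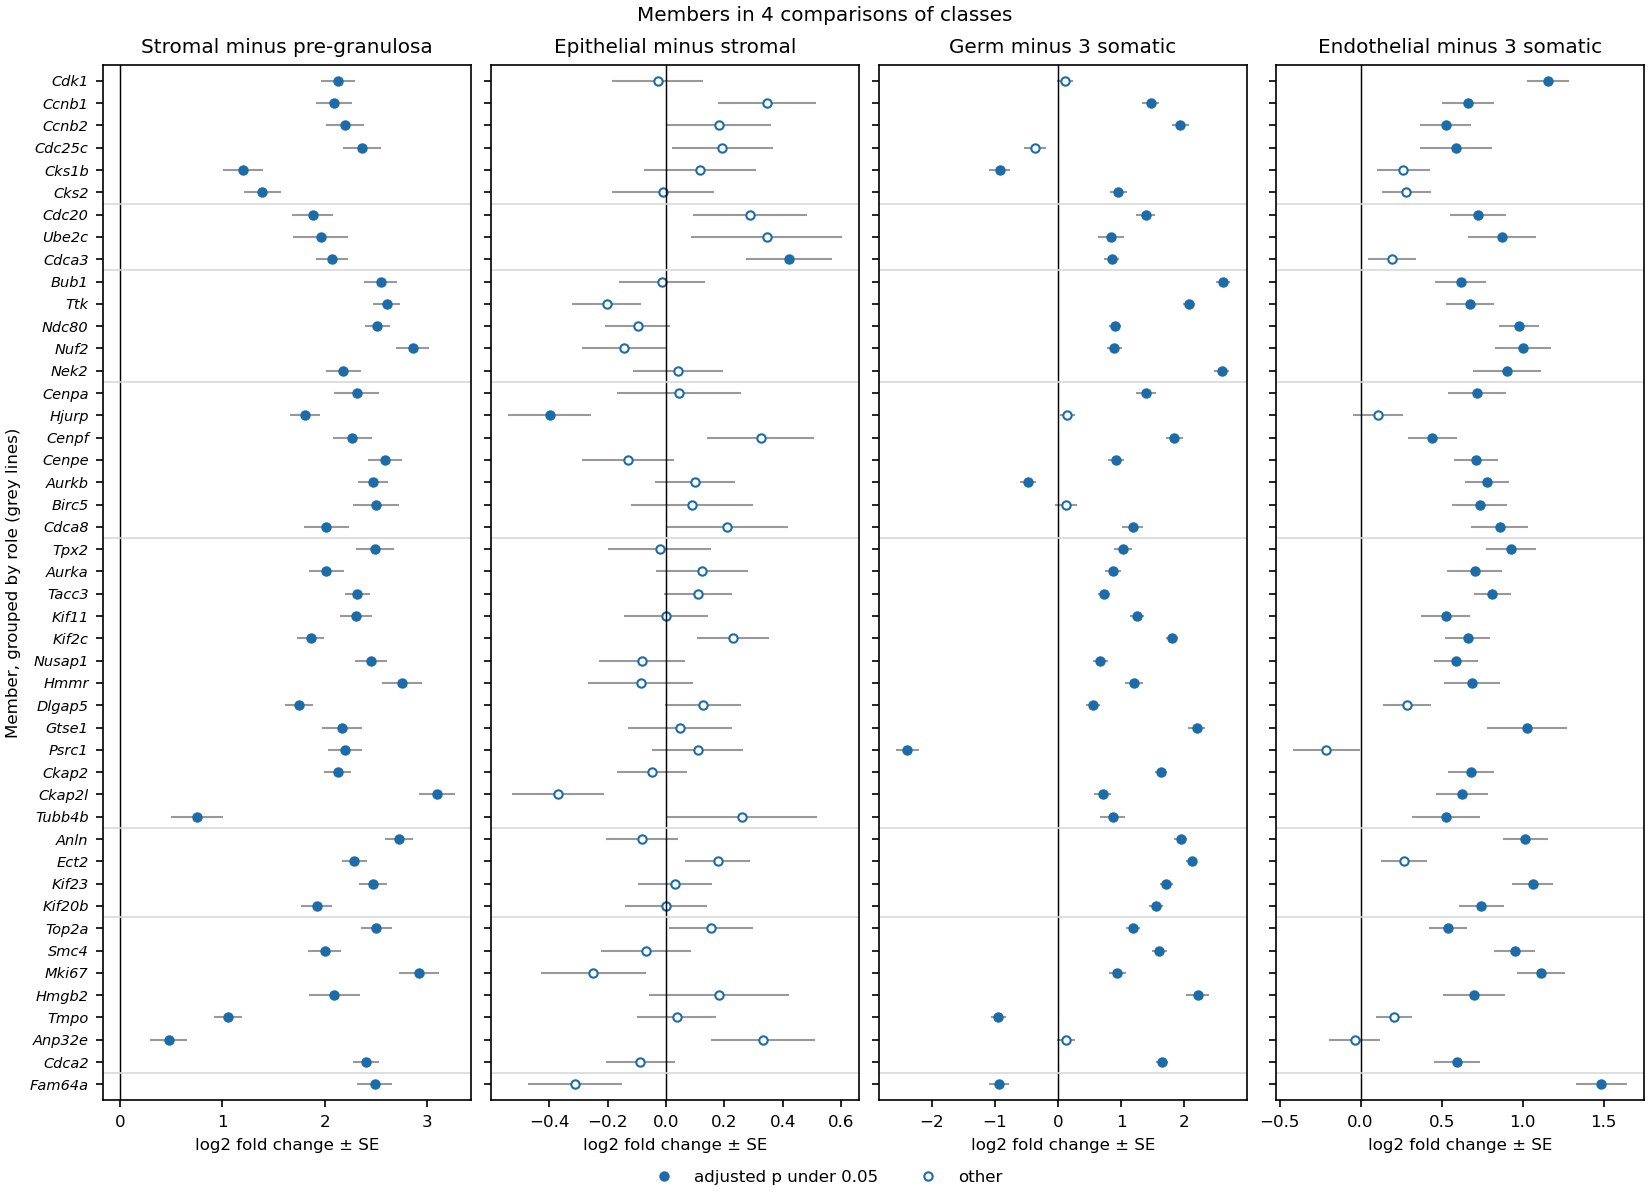
Log2 fold change with standard error (edgeR) of each of the 46 genes in 4 comparisons, each panel with its own axis range, with genes grouped by role and filled points for genes past an adjusted p of 0.05. All points are filled and right of 0 for stromal-like minus pre-granulosa-like cells, 2 are filled for epithelial-like minus stromal-like cells, and germ-like cells show both directions, with Psrc1 the farthest to the left.

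Other genes of the pathway moved alongside, from lists that were, like the members, chosen with earlier results of these data known. Of 43 S phase genes, 34 were higher in stromal-like and 40 in epithelial-like than in pre-granulosa-like cells and none was lower, with medians of 0.96 and 1.08. Of 68 further G2 and M genes, 65 were higher in each and none was lower, with medians of 1.95 and 1.91. The 2 of these with the largest changes in the stromal-like comparison were Spc25, another NDC80 complex subunit (3.09 ± 0.17), and Depdc1a (3.04 ± 0.18). Among 23 regulators of cell cycle genes, 15 were higher and 2 lower in stromal-like cells, led by E2f7 (2.77 ± 0.18) and Mybl2 (2.57 ± 0.22), and Foxm1 was higher by 2.29 ± 0.16 at 10.6 ± 0.985 against 1.96 ± 0.333 CPM. Plk1, the mitotic kinase, and Ccna2, the S and G2 cyclin, were higher by 2.34 ± 0.18 and 2.39 ± 0.15, and Pcna, the replication clamp, by 0.83 ± 0.10.

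Of 9 cell cycle inhibitors, 4 were lower and 2 higher in stromal-like than in pre-granulosa-like cells. Cdkn1b was at 171, 158 and 150.3 CPM in pre-granulosa-like cells (lots 26, 29 and 30) and at 34.7, 32.1 and 34.9 CPM in stromal-like cells, a log2 fold change of -2.36 ± 0.16 (edgeR adjusted p = 1.9e-12). Cdkn1c (p57), an inhibitor of the same family, was at 3118 ± 149 and 1235 ± 194 CPM, a log2 fold change of -1.45 ± 0.27. Cdkn2c (p18) went the other way, higher in stromal-like cells by 2.49 ± 0.33. Among 12 stress genes that can respond to dissociation, 2 were lower in stromal-like than in pre-granulosa-like cells, Hspb1 (-2.23 ± 0.36) and Hspa1b (-1.85 ± 0.65), and none was higher. Over all genes in this comparison, 24.1% were called higher and 26.3% lower. Both genes were among the 10 leading genes of a pre-granulosa-like cluster with 62, 124 and 2747 cells in lots 26, 29 and 30. The cells of that cluster thus came mostly from lot 30.

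The low average of pre-granulosa-like cells covered very unequal cells. One of the 4 pre-granulosa-like clusters, with 126, 132 and 172 cells in lots 26, 29 and 30, was led by cell cycle genes although these had been left out of the clustering. It held 3.48% of the class's cells and 46.6% of the class's member UMIs (range over lots 43.7 to 49.5%). Its module level was 11489.6, 12576 and 12993 CPM, above that of any germ-like lot, beside 842, 733 and 870.5 CPM in the other 3 clusters. A cluster led by these genes must stand high in them, so the values are a description and no test was made. All 46 members were higher in it than in the other 3 clusters in every lot, with a median fold of 36.5, and its cells had a median of 38 members detected (23 after thinning to 4000 UMIs).

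The class markers of this cluster were summed as well. The 8 pre-granulosa markers summed to 2543 CPM there, beside 4270.1 to 5428 CPM in the other pre-granulosa-like clusters and 1571 and 809 CPM in the 2 largest epithelial-like clusters. The 8 epithelial markers summed to 56.3 CPM, at the level of the other pre-granulosa-like clusters (56.7 to 65.6 CPM) and far from the 618 and 628 CPM of epithelial-like clusters. Called doublets made up 14.2% of its cells, which had a median of 16444.5 UMIs. The part of doublets in this cluster was not tested. At a clustering resolution of 0.4, or with cell cycle genes kept in the clustering, most of these cells joined the epithelial-like class, and pre-granulosa-like cells then had 829 or 799.6 CPM.

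In the other 3 clusters, 5 members supplied 64.3% of the remaining level. These were Tubb4b at 125, Tmpo at 105, Cks1b at 102, Hmgb2 at 100.4 and Anp32e at 93.8 CPM (means of 3 lots), the first 3 and the last of which also had the smallest differences between classes. At the far end, Cdc25c, the phosphatase that activates Cdk1, was at 40.9 ± 3.51 CPM in the cycle-led cluster and 0.566 CPM in the others. Without the cycle-led cluster, all 46 members were still higher in stromal-like than in pre-granulosa-like cells, beside 3415 of 13889 genes. Their median log2 fold change was 3.69.

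Epithelial-like and stromal-like cells were split in the same manner. In the epithelial-like class, 1 cluster with 29.03% of the cells held 64.0% of the member UMIs at 11014 ± 232 CPM, while the largest cluster, with 42.2% of the cells, held 12.9% at 1905 ± 207 CPM. Among stromal-like cells, 27.6% of the cells held 66.0% of the UMIs at 10813 ± 206 CPM, and 39.2% held 8.24% at 1401 ± 61.0 CPM. The germ-like class was a single cluster.

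Within a class, members went together from cell to cell. Each member was compared between cells with 5 or more of the other 45 members and the rest of the class, after thinning to 4000 UMIs so that deeper cells had no advantage. In pre-granulosa-like cells every one of the 46 members was higher in the first cells in every lot, with a median fold of 11.6, from 1.76 for Anp32e and 2.08 for Tmpo to 34.7 for Nusap1, a spindle protein, and 35.7 for Hmmr, a spindle-binding hyaluronan receptor. Stromal-like cells allowed a fold for 35 members, those above 3 UMIs in each lot's remaining cells, with a median of 16.3, from 2.15 for Tmpo to 53.5 for Cenpf. For epithelial-like cells it was 34 members with a median of 14.7, from 1.78 for Tmpo to 44.8 for Cenpf. Among the members with a fold, Tmpo, Anp32e and Cks1b had the 3 smallest in all 3 classes after thinning. Without thinning the smallest in pre-granulosa-like cells was that of Tubb4b (1.27). Germ-like cells gave no such value, since nearly all of them had 5 or more of the others.

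Epithelial-like and stromal-like cells were hard to tell apart by these genes. Of the 46 members, 1 was higher and 1 lower in epithelial-like cells (edgeR, 3 without adjustment at 0.05), beside 15.7% of all genes called higher and 18.1% lower. The median log2 fold change was 0.04 for the members and -0.01 for all genes. Cdca3, an adaptor protein linked to entry into mitosis, had 99.8, 92.0 and 88.5 CPM in epithelial-like and 76.5, 67.0 and 72.8 CPM in stromal-like cells, a log2 fold change of 0.42 ± 0.15 (edgeR adjusted p = 0.027). Hjurp, the chaperone that loads the centromeric histone Cenpa, had 49.8, 43.7 and 46.3 against 69.4, 51.0 and 69.6 CPM and a log2 fold change of -0.40 ± 0.14 (edgeR adjusted p = 0.032). The remaining 44 members had log2 fold changes from -0.37 (Ckap2l) to 0.35 (Ccnb1). The count depended on settings. With the lot as a block, 7 members were higher and 3 lower, beside 3429 of 13885 genes higher and 3732 lower. At a clustering resolution of 0.4, 20 were higher and none lower, beside 2191 of 14429 genes higher and 2512 lower. Under a stricter naming rule that left the largest stromal-like cluster, the one with the low module level, unnamed, none was higher, 28 were lower and Cdca3 was at -0.02, beside 2371 of 13902 genes higher and 2709 lower. Without lot 26 or without lot 30, no member was called in either direction, beside 1486 and 1360 genes higher and 1799 and 1638 lower.

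Germ-like cells were set against the mean of the 3 large somatic classes, which includes the low pre-granulosa-like cells. Of the 46 members, 36 were higher and 5 lower in germ-like cells, beside 38.7% of all genes called higher and 37.8% lower, and the medians were 0.99 for the members and -0.0031 for all genes. The 3 largest were Bub1, Nek2 and Hmgb2. Bub1, a spindle checkpoint kinase, was at 146, 171 and 162 CPM in the germ-like cells of lots 26, 29 and 30, beside 47.5 ± 3.02 in epithelial-like, 48.2, 52.2 and 48.2 in stromal-like and 6.88, 8.10 and 8.46 CPM in pre-granulosa-like cells, a log2 fold change of 2.62 ± 0.11 (edgeR adjusted p = 2.9e-17). Nek2, a centrosomal kinase, was at 41.2, 41.4 and 41.3 CPM in germ-like cells and at 11.8 ± 1.10, 11.8 ± 1.42 and 2.36 ± 0.461 CPM in the somatic classes (2.60 ± 0.12). Hmgb2 had a log2 fold change of 2.22 ± 0.18. None of these germ-like lots overlapped a somatic one. Called doublets made up 13.4% of germ-like cells. Without them the counts were again 36 higher and 5 lower, beside 5320 of 13657 genes higher and 5265 lower.

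By role, all 5 spindle checkpoint and outer kinetochore genes were higher in germ-like cells, with a median log2 fold change of 2.08, as were all 4 cytokinesis genes (median 1.83), which include Ect2, the exchange factor that activates RhoA at the cleavage site (2.12 ± 0.09), and Anln, the actin scaffold anillin (1.94 ± 0.10). Of 13 spindle assembly genes 12 were higher and 1 was lower. Of 7 chromosome structure genes 5 were higher and 1 lower, of 7 centromere and passenger complex genes 4 were higher and 1 lower, and of 6 genes in the cyclin and Cdk1 group 3 were higher and 1 lower. All 3 genes of the ubiquitin group were higher (median 0.85). Since the somatic mean includes pre-granulosa-like cells, a member called higher need not exceed every somatic class. Ube2c was lower in germ-like than in epithelial-like cells in every lot, and Cdca3 had its highest mean in epithelial-like cells. Over the named classes ranked above, 22 members had their highest mean in germ-like cells.

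The 5 lower members came from 5 different roles. Psrc1, which encodes a spindle protein that regulates microtubule dynamics, had 103 UMIs in all germ-like cells together, at 3.00, 1.75 and 3.74 CPM in lots 26, 29 and 30. The same gene was at 27.0, 28.7 and 25.9 CPM in epithelial-like, 28.7, 25.0 and 24.4 CPM in stromal-like and 4.37, 5.75 and 5.61 CPM in pre-granulosa-like cells, and its log2 fold change was -2.39 ± 0.19 (edgeR adjusted p = 3e-11). Germ-like cells thus had less Psrc1 for its depth than pre-granulosa-like cells in every lot. Tmpo (-0.95 ± 0.12), Fam64a (-0.94 ± 0.16) and Cks1b (-0.92 ± 0.17) were lower by similar amounts. Fam64a, also named Pimreg, encodes a mitotic regulator that binds the clathrin assembly protein CALM, and it had 12.3, 12.3 and 11.1 CPM in germ-like and 45.9 ± 4.00 CPM in stromal-like cells. Aurkb had a log2 fold change of -0.47 ± 0.12, and this value changed sign, to between 0.04 and 0.13, under the 3 alternatives that moved the cycle-led pre-granulosa cells out of their class. Hjurp (0.15), Anp32e (0.13), Birc5 (0.13), Cdk1 (0.12) and Cdc25c (-0.36) did not pass the test (edgeR adjusted p from 0.057 to 0.51).

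In the wider pathway, 33 of 43 S phase genes were higher and 3 lower in germ-like cells, led by Hells, a chromatin remodeller (3.23 ± 0.14). Of 68 further G2 and M genes, 49 were higher and 10 lower, led by the cohesin acetyltransferase Esco2 (3.62 ± 0.11) and separase, Espl1 (2.82 ± 0.12). Over all genes in this comparison, 38.7% were called higher and 37.8% lower. Among the regulators, 9 of 23 were higher and 6 lower, so that the higher count was near the share over all genes. Mybl2 was at 33.3, 25.7 and 27.9 CPM in germ-like cells against 7.38 ± 1.55, 6.21 ± 1.33 and 0.953 ± 0.214 CPM in the somatic classes (3.06 ± 0.14), while Foxm1 differed less (0.97 ± 0.13). Cdkn1b was at 14.0 ± 2.57 CPM in germ-like cells (-2.01 ± 0.15), and Cdkn2a had the largest change of the 9 inhibitors (7.59 ± 0.22). Of these inhibitors 4 were higher and 4 lower, counts near the shares over all genes. Plk1 and Ccna2 were higher by 0.89 ± 0.14 and 1.28 ± 0.11. Of the 12 stress genes, 11 were lower in germ-like cells and 1 was higher, with a median of -2.29, and the part of dissociation in the comparison was not tested.

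Closely related members did not keep the same balance in every cell type. The ratio of Cks1b to Cks2 UMIs, 2 genes for closely related Cdk1-binding adaptors, was 0.476, 0.533 and 0.621 in the germ-like cells of lots 26, 29 and 30. It was 1.89, 2.32 and 2.09 in pre-granulosa-like, 1.73, 2.21 and 2.10 in epithelial-like and 1.61, 2.04 and 1.90 in stromal-like cells. Cks2 was thus the more abundant of the pair in germ-like cells and Cks1b in the somatic classes, with no overlap of lots. Endothelial-like cells (1.94 ± 0.279) were like the large somatic classes, and macrophage-like (1.17 ± 0.148) and Sertoli-like cells (1.34 ± 0.222) lay between.

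The Aurora kinases turned in the same cells. Aurka acts at centrosomes and spindle poles and Aurkb in the chromosomal passenger complex. Their ratio was 1.93, 2.04 and 1.92 in germ-like cells, beside 0.985, 0.819 and 1.04 in pre-granulosa-like, 0.735, 0.668 and 0.712 in epithelial-like and 0.658, 0.693 and 0.730 in stromal-like cells. Levels of Aurka itself were close in the dividing classes, with 49.9 ± 6.30 CPM in germ-like, 46.8 ± 4.06 in epithelial-like and 44.4 ± 1.77 CPM in stromal-like cells. Aurkb differed, at 25.4 ± 2.33, 66.4 ± 5.05 and 64.0 ± 3.12 CPM. The cyclins Ccnb1 and Ccnb2 moved less against each other, with ratios of 0.466 ± 0.0311 in germ-like, 0.655 ± 0.125 in pre-granulosa-like, 0.681 ± 0.114 in epithelial-like, 0.603 ± 0.0532 in stromal-like and 0.710 ± 0.0331 in endothelial-like cells. Germ-like cells had 121, 133 and 127 CPM of Ccnb1 and 247, 309 and 267 CPM of Ccnb2, and stromal-like cells 73.2, 69.2 and 75.4 and 126, 123 and 114 CPM. Ccnb1, Ccnb2 and Tubb4b have annotated pseudogenes of their name, to which some reads could belong.

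**Figure D4:**
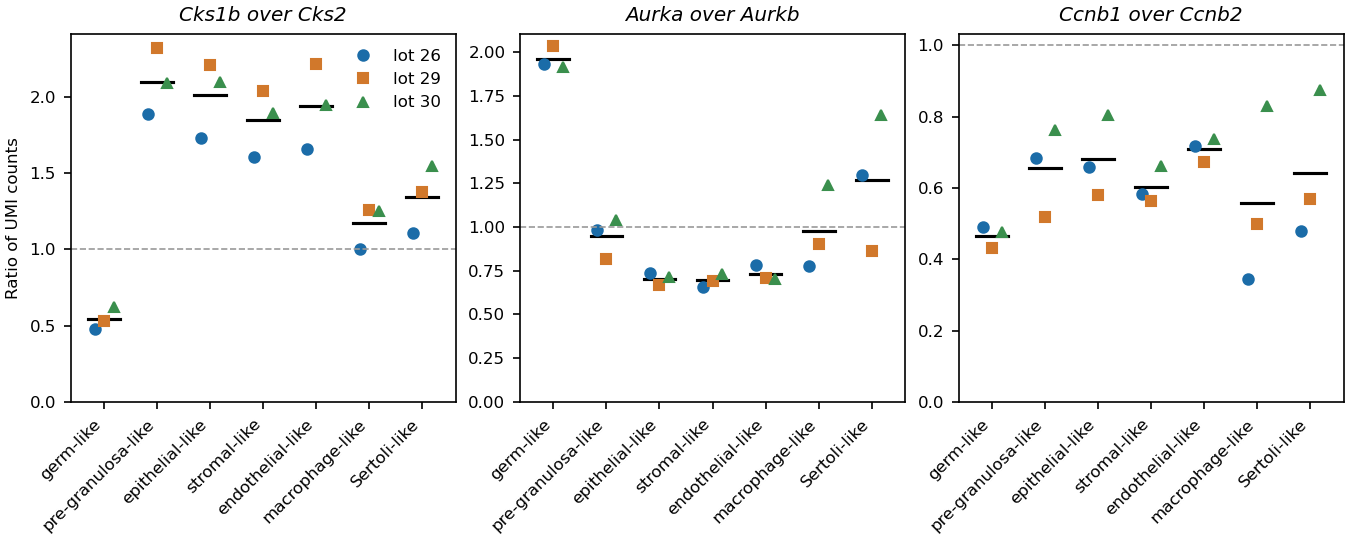
Ratio of UMI counts for 3 pairs of related members (Cks1b over Cks2, Aurka over Aurkb, Ccnb1 over Ccnb2) per class, with 1 point per lot, a black line at the mean of the lots and a dashed line at a ratio of 1. Germ-like points lie lowest for Cks1b over Cks2 and highest for Aurka over Aurkb, apart from the other classes in both panels.

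Germ-like cells were then divided by Stra8, the gene that starts meiosis in response to retinoic acid. Cells with a Stra8 UMI numbered 667, 297 and 355 in lots 26, 29 and 30, and those without 81, 40 and 29. Their module levels were 8175, 8454 and 7777 CPM with Stra8 and 8454, 10017 and 9749 CPM without it, so that cells with Stra8 were lower in every lot. The highest lot with Stra8 (lot 29) and the lowest without it (lot 26) were equal at the precision printed. In edgeR's test over 11241 genes, no member was higher (21 members had an unadjusted p under 0.05 in either direction) and 7 were lower in cells with Stra8, beside 6.67% of all genes called higher and 6.21% lower. Medians were -0.27 for the members and 0.01 for all genes. DESeq2 called the same numbers, 0 higher and 7 lower, beside 590 of 11240 genes higher and 759 lower.

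Aurkb changed the most (-0.91 ± 0.18, SE, edgeR adjusted p = 0.0052), followed by Ccnb1 (-0.86 ± 0.15, adjusted p = 0.0021) and Ube2c (-0.65 ± 0.16, adjusted p = 0.017). Dlgap5 (-0.64), Tubb4b (-0.58), Cdca2 (-0.57) and Cks2 (-0.53) were the others. At the other end, Psrc1 (0.82 ± 0.76) and Ckap2l (0.45 ± 0.17) did not pass the test. Of the wider lists, 1 of 67 further G2 and M genes was higher and 12 were lower, 3 of 43 S phase genes were higher and 5 lower, and 3 of 23 regulators were lower, among them Mybl2 (-1.01 ± 0.18). Ccna2 had a log2 fold change of -0.71 ± 0.17. The lots pair the 2 sets of cells, and with the lot as a block 3 members were higher and 16 lower, beside 1463 of 11241 genes higher and 1448 lower. Leaving out lot 26 left 2 lower members, beside 138 of 10977 genes higher and 164 lower, and leaving out lot 30 left 1, beside 187 of 11218 genes higher and 164 lower. Cells with Stra8 had median depths of 22045, 18134 and 23966 UMIs and those without 16109, 17910.0 and 20735, and a Stra8 UMI is easier to find in a deeper cell. After thinning to 4000 UMIs, 1 member was higher and 5 were lower, beside 219 of 7825 genes higher and 207 lower. The members called changed with the setting. Of the members called lower in the main fit, 5 no longer passed the threshold after thinning. Without lot 26, 6 of them no longer passed, and the number was also 6 without lot 30.

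Endothelial-like cells, 175, 88 and 88 cells that escaped the CD31 beads, were also set against the mean of the 3 large somatic classes. Of the 46 members, 37 were higher and none was lower (edgeR, 37 with an unadjusted p under 0.05), beside 19.0% of all genes called higher and 21.1% lower, with medians of 0.68 for the members and -0.07 for all genes. DESeq2 called 39 higher and 0 lower, beside 3263 of 13884 genes higher and 2703 lower. Fam64a led, at 65.2, 82.7 and 42.8 CPM, with a log2 fold change of 1.49 ± 0.16 (edgeR adjusted p = 1.7e-08). It was among the lower members in germ-like cells. Cdk1, the mitotic kinase itself, was at 178, 222 and 162 CPM in endothelial-like, 138 ± 7.74 in epithelial-like, 146 ± 7.85 in stromal-like and 90.7 ± 3.98 CPM in germ-like cells (1.16 ± 0.13). Mki67 was higher by 1.11 ± 0.15. Since the somatic mean includes pre-granulosa-like cells, these differences are against a low average. The 9 members that did not pass the test were Dlgap5, Cks2, Ect2, Cks1b, Tmpo, Cdca3, Hjurp, Anp32e and Psrc1, with log2 fold changes from -0.21 to 0.29. Called doublets made up 11.4 to 22.7% of endothelial-like cells. Without them 37 members were again higher, beside 2677 of 13657 genes. Of 43 S phase genes, 9 were higher and 4 lower there, so that the higher count was near the 19.0% of all genes called higher. Of 9 inhibitors 4 were lower, with Btg2 (-1.21 ± 0.49) and Cdkn1a (-1.201 ± 0.18) at the head.

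Members also differed in how their levels stood to those of S phase genes. Cells with 5 or more members were divided in each class and lot at the median UMI share of 43 S phase genes, and each member's CPM in the low cells was set against that in the high cells. Among stromal-like cells, 17 members were higher in the low cells and 21 in the high cells in every lot. Cdc20, the activator of the anaphase-promoting complex, led at log2 ratios of 1.199, 0.79 and 0.90 in lots 26, 29 and 30 (0.96 ± 0.21, SD). Cenpa (0.85 ± 0.13), Psrc1 (0.79 ± 0.20) and Cenpf (0.72 ± 0.31) followed. At the high S phase end were Ttk, a spindle checkpoint kinase (-0.91 ± 0.04), Top2a (-0.88 ± 0.18), Ndc80 (-0.76 ± 0.17) and Aurkb (-0.71 ± 0.21).

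Epithelial-like cells had 4 members higher in the low cells in every lot, Ccnb2 (0.38 ± 0.33), Cenpa (0.35 ± 0.38), Cdc20 (0.31 ± 0.43) and Psrc1 (0.31 ± 0.29), all of which were also higher there in stromal-like cells, and 26 in the high cells, led by Top2a (-1.12 ± 0.28). In germ-like cells 21 members were higher in the low cells and 10 in the high cells in every lot, from Ccnb1 (0.90 ± 0.13), Cdc20 (0.81 ± 0.09) and Cks2 (0.70 ± 0.08) at one end to Top2a (-0.48 ± 0.17) and Ndc80 (-0.49 ± 0.20) at the other. Top2a was thus near the high S phase end and Cdc20 near the low one in each of these 3 classes. In pre-granulosa-like cells all 46 members were higher in the high cells in every lot, and module levels were 858, 1055 and 947 CPM in the low and 2199, 3072 and 2539.9 CPM in the high cells. Requiring 10 or more of the other members raised the counts of members higher in the low cells to 28 in epithelial-like and 41 in stromal-like cells, and left 0 in pre-granulosa-like cells. Epithelial-like cells also had lower module levels in the low set, at 5104, 6564 and 4827 CPM beside 7638, 7117 and 6801 CPM in lots 26, 29 and 30. Stromal-like lots went both ways, and in germ-like cells the low set was higher in every lot. Cells of the low set were shallower in every somatic class and lot, and the part of depth in the order was not tested. How many cells of the low set were not dividing was not tested either.

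**Figure D5:**
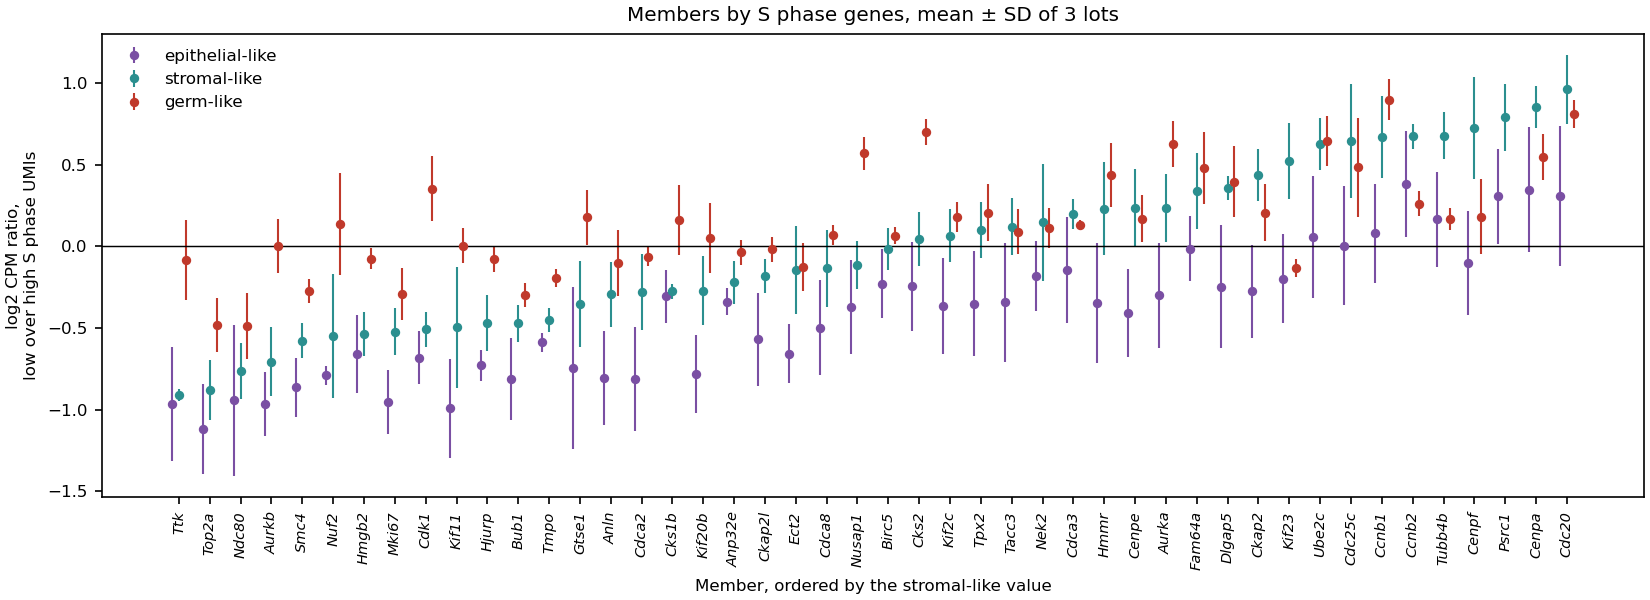
Log2 ratio of each member's CPM in cells with low over cells with high S phase UMI share (mean ± SD of 3 lots) in stromal-like, epithelial-like and germ-like cells that had 5 or more of the other members, with members ordered by the stromal-like value. Ttk and Top2a are at the low end and Cenpa and Cdc20 at the high end, and epithelial-like values lie below the stromal-like ones for most members.

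Genes outside the cell cycle lists were ranked by how closely they followed the summed members over 26013 named cells. The rank was by the lowest Pearson r of the 3 lots among 12493 genes. Within each lot the class means were removed first, so that r measures variation within classes. Among the 10 closest were 2810417H13Rik (0.722), Aspm (0.587), Hist1h3c (0.547), Nucks1 (0.527), Kpna2 (0.525), Fbxo5 (0.525), Arhgap11a (0.524), Hist1h2ab (0.509) and Dbf4 (0.498). The cells of a lot share a library and differ in depth, and these coefficients are a description. 2810417H13Rik, the gene of the PCNA-associated factor PAF15, was at 366 ± 60.4 CPM in epithelial-like and 401 ± 27.9 CPM in stromal-like cells but at 44.1 ± 2.68 CPM in germ-like and 46.5 ± 7.33 CPM in pre-granulosa-like cells. It thus followed the members within somatic cells and lay at the pre-granulosa-like level in germ-like cells. Aspm, a spindle pole protein, was at 42.01 ± 5.42 CPM in germ-like and 63.1 ± 2.82 CPM in stromal-like cells.

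Reads from overlapping genes could enter some values, since the strand setting and annotation release of the counting are not given in the sources used here. In the GENCODE annotation of GRCm38, exons of 11 members overlap an exon of another gene, 10 of them antisense, and for 6 members the overlapping gene is in the tables: Oip5 for Nusap1, Tnnc2 for Ube2c, Tmem129 for Tacc3, Fam166a for Tubb4b, Elovl1 for Cdc20 and Gm3550 for Cdc25c. Psrc1, Cks1b, Cks2, Aurka, Aurkb, Bub1 and Fam64a have no such overlap.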

How the data were processed

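The deposited tables hold UMI counts per gene and cell, 1 table per lot. Per the labels' processing notes the authors used UMI-tools, STAR 2.7 and featureCounts 2.0.1 (Subread) on GRCm38, and the notes also name Seurat. The annotation release and the strand setting are not given in the sources used here. Barcodes with 200 to 9000 genes and at most 10% mt- UMIs were kept, with 125898949, 87474664 and 141398825 UMIs in lots 26, 29 and 30. Doublets were called per lot with Scrublet (scanpy 1.11.5, expected rate 8%) and kept in the main values.

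Cells were clustered in Seurat 5.3.0 (50 components, resolution 0.8) with cell cycle genes removed from 2000 variable genes. A cluster took a name from 11 marker lists where its mean marker score was at least 1 and led the next list by 0.25, at least 3 markers were raised by 0.5, at least 2 were detected in 60% of its cells, no other list had 2 or more, and more than its own, of the top 10 genes, and its depth was not under 0.333 of its sample's unless 1 of that list's markers was among its top 10 genes. Clusters with over 50% called doublets stayed unnamed. The scoring values were set after the clusters were seen. The names are rebuilt here and are not the authors' own.

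UMIs were summed per class and lot (24 sums of 8 classes, Sertoli-like and unnamed cells left out) and tested with edgeR 4.0.16 (limma 3.58.1, R 4.3.3; TMM, filterByExpr, quasi-likelihood, Benjamini-Hochberg over all genes tested, threshold 0.05), a procedure tested on simulated data. DESeq2 1.42.0 was an alternative. Shares of cells were compared with exact permutation tests (scipy 1.17.1), which cannot go below 0.1 with 3 against 3 lots. Other measures are means ± SD of 3 lots. A fold needed over 3 UMIs in the lower group of each lot. P-values measure the spread between 3 pooled lots. The binomial intervals of a cell share within a lot cover counting error only, and not depth, doublets or cluster naming. Sums of the same lot come from 1 library, and so the lots pair them. Deviations of same-lot sums from their class averages had a median Pearson r of 0.107 over 84 pairs of classes within a lot number, 44 of them over 0.1. These pairs include small classes, with a smallest sum of 184947 UMIs, and not the cells divided by Stra8. The main fits had no lot block. With the block more genes were called in the Stra8 comparison and in that of epithelial-like with stromal-like cells, as given below.

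The members and lists were chosen with earlier results of these data known. Every member could be named, with full values for the 10 of highest mean level, for the 3 of largest change in each direction and those not called in each comparison, and for 3 pairs. Other genes named are the 2 called genes of largest change in each list, 8 regulators, inhibitors and stage genes, and the 10 genes that followed the members most closely. A few genes that this rule would name are not reported here.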

Additional observations from a re-analysis of the deposited data

Results flagged for a closer look

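Some cells with measurable levels of the G2 and M genes are in none of the comparisons between classes. Sertoli-like cells, 390 in all, of which 285 came from lot 29 and 16 from lot 30, had a mean of 5413 CPM over 3 lots. The 6 other clusters took no name and are given by their leading genes, with module levels pooled over lots. The cluster led by Lypd1 and Pax8 (796 cells) had 827 CPM, close to the pre-granulosa-like clusters that were not led by cycle genes. The cluster led by Insl3, with Cyp17a1 among its top genes (642 cells), had 7027 CPM, from 6153 in lot 26 to 8156 in lot 30. The cluster led by Cyp11b1 and Cyp21a1 (143 cells) had 3055 CPM, with 3570.2 and 3713 CPM in lots 26 and 29 and 974 CPM in lot 30, where it held 37 cells. The cluster led by Chgb and Chga (56 cells) had 3921 CPM. A cluster of 733 shallow cells (median 2688 UMIs) led by Lars2 had 3757 CPM, and a cluster of 588 cells led by Col6a3, 82.3% of them called doublets, had 3485 CPM. None of these levels was tested.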

How the results depend on the processing

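Of 327 recomputed summary values, 265 kept their direction and stayed within the limits set for a change. All 46 members stayed higher in epithelial-like than in pre-granulosa-like cells under each of 17 alternatives, beside 1999 to 3902 of all genes called higher. The comparison of epithelial-like with stromal-like cells was the least settled. Members called higher there numbered 6 with 4 classes in the fit, 20 at resolution 0.4, 2 with cycle genes kept in the clustering, 4 with the doublet-rich cluster counted as stromal-like, 0 with library totals, 7 with the lot as replicate block and 0 under stricter naming. All genes called higher numbered 3022 of 14676, 2191 of 14429, 1996 of 13857, 1969 of 13878, 1770 of 13885, 3429 of 13885 and 2371 of 13902 in the same order. Members called lower numbered 3, 0, 0, 0, 2, 3 and 28 in the same order, 3 with DESeq2 and 2 with RLE size factors. All genes called lower numbered 3152, 2512, 2460, 2334, 2495, 3732 and 2709 in that order. With DESeq2 they numbered 3349 of 13884, and with RLE size factors 2705 of 13885. Leaving out 1 lot gave 0 to 1 higher and 0 to 2 lower. Over all genes these fits called 1360 to 2281 higher and 1638 to 2273 lower. The median log2 fold change of the members there turned to -0.0037 with DESeq2, -0.00036 with RLE size factors, -0.0031 with library totals and -0.44 under stricter naming. For cells with and without Stra8, higher members numbered 2 without doublets, 1 after thinning, 2 with library totals, 3 with the block and 3 with no low-count filter, lower members numbered 16 with the block, and leaving out 1 lot gave 0 to 2 higher and 1 to 6 lower. All genes called higher numbered 903 of 10828, 219 of 7825, 844 of 11241, 1463 of 11241 and 1130 of 17143 in the same order. With the block 1448 genes were lower, and leaving out 1 lot gave 138 to 632 higher and 164 to 665 lower. The block moved no other count of members by over 1.5 times, but over all genes it moved the higher calls of epithelial-like over stromal-like cells from 2186 to 3429 and, for Stra8, the higher calls from 750 to 1463 and the lower calls from 698 to 1448. Cdca3 turned to -0.020 under stricter naming. Aurkb in germ-like cells turned to 0.039 at resolution 0.4, 0.087 with cycle genes kept and 0.13 without the cycle-led pre-granulosa-like cluster. The causes were not tested beyond the construction of each alternative.

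Module CPM of pre-granulosa-like cells was 829 at resolution 0.4, 799.6 with cycle genes kept, 819 without the cycle-led cluster and 1129.5 without Hmgb2 and Tubb4b. Epithelial-like cells had 6691, 6653 and 4895 CPM at resolution 0.4, with cycle genes kept and without the 2 genes, and stromal-like cells 5385, 6014 and 4751 CPM, 8113 under stricter naming and 5423 with the doublet-rich cluster. Without the 2 genes germ-like cells had 5616 and endothelial-like cells 4459 CPM. Asking for 3 or more members gave 90.6% of pre-granulosa-like, 98.0% of epithelial-like, 93.3% of stromal-like and 99.6% of endothelial-like cells. Asking for 10 or more gave 9.92%, 59.0%, 44.5% and 67.0%, and 99.9% of germ-like cells. Thinning gave 13.9%, 60.9%, 53.6%, 63.6% and 99.9%, and stricter naming gave 83.5% of stromal-like cells. Thinning raised the median fold in pre-granulosa-like cells with 5 or more of the other members to 11.6, and asking for 10 others gave 28 epithelial-like and 41 stromal-like members above 0 in the S phase split. Alternatives of naming, of thinning in the co-detection and of 10 others were chosen after seeing the data. Using all barcodes was not run, since barcodes that were not kept have no class. Low counts limit Psrc1 in germ-like cells and most members in red-blood-cell-like cells.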
